A study of Mus musculus with 20 samples.

Results

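Contractile and stress fibre genes encode the actins, myosins, tropomyosins and their partners that let a fibroblast pull on its surroundings. They are given here as a list of 36 named genes, chosen by symbol, out of 47729 gene identifiers in the count tables of colon fibroblasts from C57BL6/J mice. All 36 had an entry and all 36 were abundant enough to be tested. The fibroblasts were grown on plastic in medium with serum and polyadenylated RNA was sequenced, in 20 libraries of 5 groups. Medium conditioned by organoids of the line APTKA was applied for 24 h in 1 group (APTKA), and medium of the line APTK for 24 h in another (APTK). In 2 further groups the same media belonged to an arm that received 5 fractions of 2 Gy (irradiated APTKA and irradiated APTK). The last group held untreated fibroblasts, which the labels also call wild-type. Each group had 4 libraries, numbered I to IV. The labels do not expand APTK and APTKA and do not say whether organoids or fibroblasts were irradiated. No group received unconditioned organoid medium and no untreated group was irradiated, so an effect of a conditioned medium cannot be told apart from one of fresh medium or of its other contents. Nothing says that the libraries came from separate cultures or animals, so the p-values measure the spread between libraries, which may be technical.

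Stress fibres are bundles of actin filaments held together by crosslinkers and pulled by bipolar filaments of myosin II, whose activity is set by phosphorylation of its regulatory light chain. They end at focal adhesions, where adaptor proteins tie actin to the matrix receptors. A fibroblast that builds many such fibres and makes smooth muscle actin is called a myofibroblast, the contractile state known from wounds, fibrosis and tumour stroma of the gut. Many of these genes are controlled by serum response factor, encoded by Srf, which binds the CArG box of their promoters together with myocardin-related factors that are set free when monomeric actin is used up.

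The CArG box was searched in 38 RefSeq promoter windows of 30 of the listed genes (build GRCm38.p6, 250 bases before to 50 bases after the start). The box is a palindrome, so a match on either strand is the same match. It was present in 7 windows (18.4%), against 535 of 32851 windows of all genes (1.63%), and the genes were Srf, Cnn2, Vcl, Myl9, Myl6 and Fhl2. Actg2, Tagln, Csrp2, Myh11, Actb and Tgfb1i1 had no window. With 1 base of the inner stretch allowed to differ, Acta2 and Tpm3 also matched, and the shares were 26.3% and 9.98%. The pieces below show the boxes of 5 of these genes in their promoter setting, 5′ to 3′ on the gene's strand, with the box in capitals; those of Myl6 and of a further Fhl2 window lie in annotated exons and are not printed.
Srf, chr17:46556175-46556284, minus strand: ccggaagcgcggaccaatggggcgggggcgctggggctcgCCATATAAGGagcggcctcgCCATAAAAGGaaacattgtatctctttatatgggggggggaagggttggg
Cnn2, chr10:79988504-79988593, plus strand: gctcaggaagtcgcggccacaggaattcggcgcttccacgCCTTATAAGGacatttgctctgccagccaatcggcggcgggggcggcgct
Vcl, chr14:20929148-20929220, plus strand: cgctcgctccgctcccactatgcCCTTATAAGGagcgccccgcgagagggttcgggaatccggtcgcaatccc
Myl9, chr2:156775263-156775352, plus strand: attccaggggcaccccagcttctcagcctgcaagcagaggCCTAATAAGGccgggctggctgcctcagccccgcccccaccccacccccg
Fhl2, chr1:43163962-43164032, minus strand: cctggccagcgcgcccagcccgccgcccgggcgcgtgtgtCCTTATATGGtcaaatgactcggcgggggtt
Counted from the start site, the boxes begin at -82 and -62 in Srf, -56 in Cnn2, -227 in Vcl, -161 in Myl9 and -31 in the Fhl2 window shown. Such matches describe letters and do not show that the factor binds there. Of the 6 genes with a box, Cnn2, Myl9 and Myl6 were lower with APTKA medium than in untreated cells, beside 29.9% of all genes. Fhl2, Vcl and Srf did not pass the test there. With APTK medium Fhl2 was higher and Myl6 lower, beside 20.9% and 22.5% of all genes, and the others did not pass. A link between the box and these changes was not tested.

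The libraries held 17259557 to 31634843 counted reads, of which the listed genes took 3.08% to 4.01%. No pair of libraries of a group agreed within counting noise, and the spread was widest in the irradiated APTK group (mean chi-square per gene of a pair 17.1 to 88.2, against 4.79 to 41.6 in the other groups). In that group library III had a mitochondrial share of 0.534%, against 1.01% to 1.23% in I, II and IV, and library II was the shallowest of all, so counts for this group are also given without them. The cells matched their label: the 8 fibroblast markers summed to 28330 to 32410 CPM (counts scaled to a common library total) with APTKA medium, 47410 to 52920 with APTK medium and 55140 to 62110 in untreated cells. The 6 epithelial markers summed to at most 1.15 CPM in any library, with Krt20 up to 0.967 CPM and Epcam at or below 0.105 CPM. The 6 immune markers summed to at most 9.95 CPM, with Lyz2 up to 6.91, Cd68 up to 3.35, Csf1r up to 2.07 and Ptprc up to 0.195 CPM, and Cd3e at 0. All 8 fibroblast markers were lower with APTKA medium than in untreated cells, beside 29.9% of all genes. With APTK medium 3 of them were higher and 1 lower, beside 20.9% and 22.5% of all genes. The 9 markers of pericytes and vascular smooth muscle summed to 545 to 629 CPM with APTKA medium, 1163 to 1323 with APTK medium and 1248 to 1290 in untreated cells. Pdgfrb alone averaged 364, 863 and 890 CPM in these groups, Mcam 127, 242 and 222, and Notch3 73.7, 103 and 98.8. Cspg4 stayed at or below 21.5 CPM, Abcc9 18.4, Kcnj8 13.7, Rgs5 3.68, Steap4 2.35 and Higd1b 0.0849 in all libraries. Of the 8 markers of this set that could be tested, 6 were lower and 1 higher with APTKA medium, beside 29.9% and 31.5% of all genes. Of the 6 visceral smooth muscle markers outside the list, Kcnmb1 had 7.60 to 15.1 CPM and Synm 1.92 to 5.15 CPM over all libraries, Chrm2 reached 1.73 CPM, Myocd stayed at or below 0.43 CPM and Hhip at or below 0.11 CPM, and Pcp4 was at 0 in all libraries. The part of these shifts in the results below was not tested. In RNA from a whole culture, fewer cells of a type and less RNA per cell cannot be told apart.

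Per kilobase of exon, the listed genes spanned from 1775 CPM of Actb to 0.834 CPM of Des. Acta2 (1490 CPM per kilobase), Tagln (947), Myl9 (685), Flna (554) and Actg2 (548) followed Actb. Myh9, at 268 CPM per kilobase, exceeded Myh11 (37.9) and Myh10 (35.2). Myl6 (39.2) and Tpm3 (16.7) have many processed copies in the genome, and how multi-mapped reads were handled is not stated in the labels, so their counts are uncertain. The same holds for the actins, which are near-identical in their coding parts. Exons of 10 of the listed genes (Tagln, Cnn3, Mylk, Tpm4, Actn1, Actn4, Vcl, Zyx, Des and Smtn) overlap a gene on the opposite strand, and those of Pdlim7 hold a microRNA gene on the same strand. The strand setting is not stated either, so a share of those counts could belong to the neighbour. The summed level of the listed genes overlapped between all groups: it was 36470 ± 2160 CPM in irradiated APTKA, 34460 ± 944 in APTKA, 34590 ± 1973 in irradiated APTK, 34800 ± 1635 in APTK and 34790 ± 2214 CPM in untreated cells (SD, n = 4 each).

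With APTKA medium, 10 of the 36 genes were higher and 9 lower than in untreated fibroblasts (edgeR quasi-likelihood test, false discovery rate of 5% over 14820 genes). Of all genes tested, 31.5% were higher and 29.9% lower, against 27.8% and 25% of the list. The median log2 fold change was 0.036 over the list and 0.0031 over all genes. The smooth muscle genes Acta2, Tagln, Myl9 and Myh11 and the kinase gene Mylk were lower, while Lmod1 and Des, also known from smooth muscle, were higher, as were the non-muscle myosin Myh9, the crosslinker Actn1 and the adaptor Pdlim7. Actg2, Cnn1 and Smtn, also smooth muscle genes, did not pass with APTKA (0.025, 0.013 and -0.09). With APTK medium, 9 genes were higher and 10 lower than in untreated cells, where 20.9% and 22.5% of all genes were (25% and 27.8% of the list), with medians of 0.0062 over the list and 0.0028 over all genes. Both comparisons use the same untreated libraries. Set against each other, APTKA medium gave 12 higher and 10 lower genes than APTK medium, beside 31.1% and 31.8% of all genes (33.3% and 27.8% of the list). In the irradiated arms, 17 genes were higher and 10 lower with irradiated APTKA medium than in untreated cells, where 31% and 30% of all genes were (47.2% and 27.8% of the list). Irradiated APTK medium gave 7 higher and 6 lower genes, beside 21.5% and 22.2% of all genes, and 12 called genes without its library III or 16 without its library II. Irradiated APTKA against irradiated APTK medium gave 17 higher and 8 lower genes, beside 30.1% and 31.2% of all genes, and 23 called genes without either of those libraries. Over the list and over all genes, the median log2 fold change was 0.13 and -0.0056 for irradiated APTKA and 0.016 and 0.010 for irradiated APTK against untreated cells, 0.030 and -0.026 for APTKA against APTK, and 0.16 and -0.031 for irradiated APTKA against irradiated APTK. Past a log2 fold change of 1 in size stood Des alone in the APTKA and irradiated APTKA comparisons with untreated cells. Mylk alone did so between APTKA and APTK, and Pdlim7 alone between the irradiated media. No listed gene did with either APTK medium against untreated cells. Of the 14820 genes tested, 1862 were called past that size for APTKA and 943 for APTK against untreated cells. For irradiated APTKA and irradiated APTK these were 1825 and 929. Between APTKA and APTK there were 1756, and between the irradiated media 1681. These splits and medians moved with the scaling. Upper quartile scaling gave 10 higher and 11 lower genes for APTKA, 12 and 6 for APTK and 13 and 11 for irradiated APTKA against untreated cells. It gave 11 and 12 for APTKA against APTK and 12 and 11 between the irradiated media. The list's median became 0.077 for irradiated APTKA against untreated cells, -0.041 for APTKA against APTK and 0.087 between the irradiated media, where that of all genes was -0.057, -0.097 and -0.10. With a filter of 5 CPM the list's median was 0.069, -0.0070 and 0.11 in the same comparisons; DESeq2 gave 6 higher and 8 lower for irradiated APTK.

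**Figure D1:**
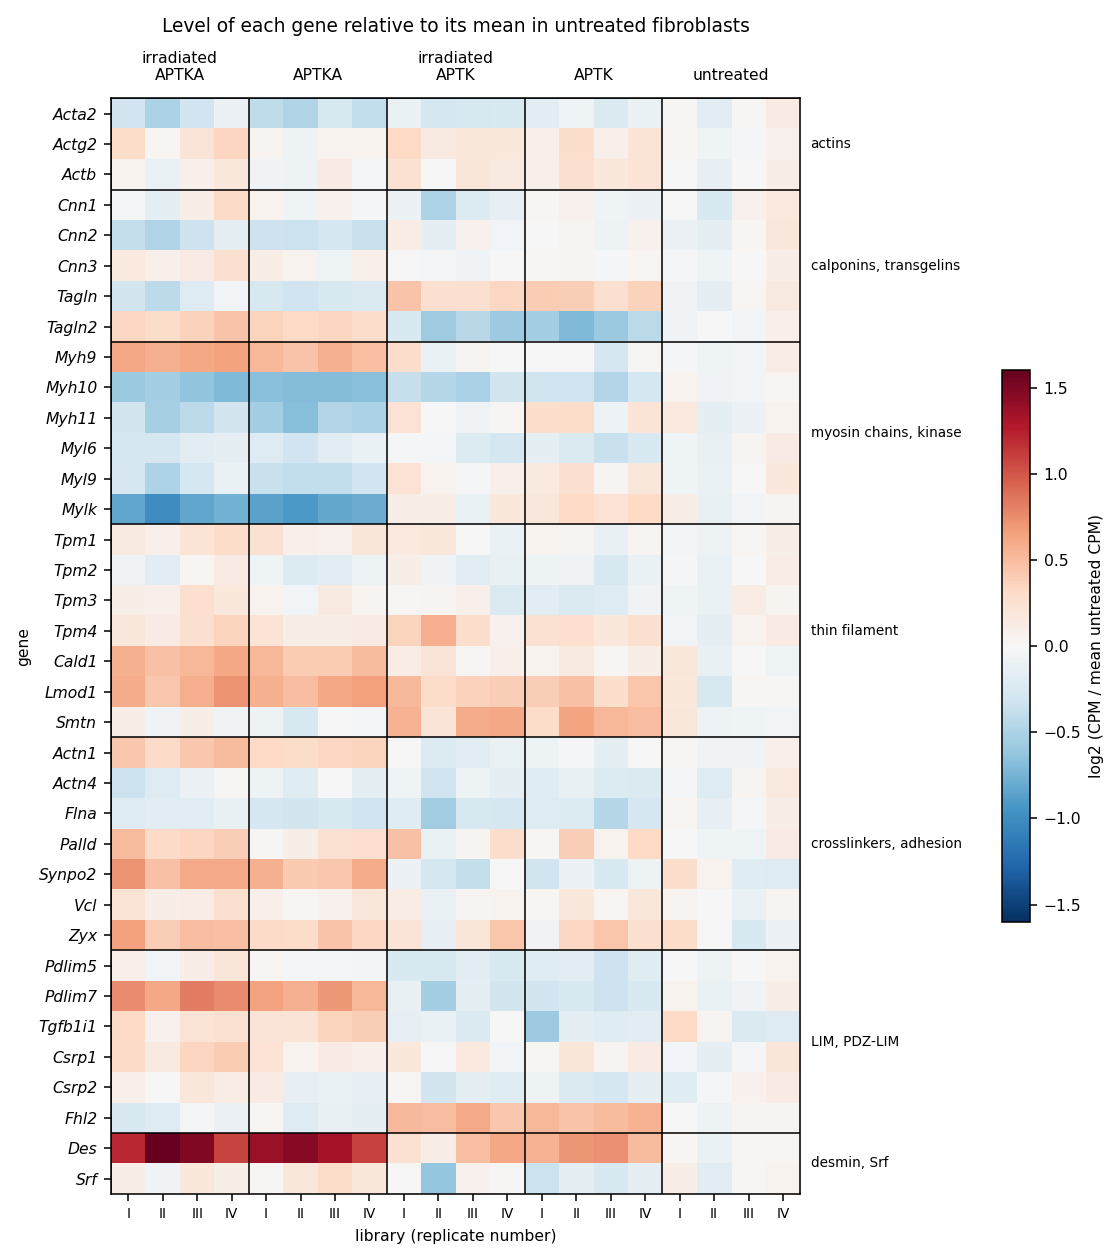
Level of each of the 36 listed genes in each of the 20 libraries (columns, by group and replicate number), as log2 of CPM over the gene's mean CPM in untreated fibroblasts; red is higher and blue lower, and genes are grouped by role. Mylk is blue and Pdlim7 and Myh9 are red in the 8 libraries of both APTKA groups, and Fhl2 and Smtn are red in the APTK groups. Myh10 lies below and Des above the untreated mean in every library with a conditioned medium, most strongly in the APTKA groups.

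Acta2 (chr19:34241090-34255590, minus strand) encodes smooth muscle alpha-actin, the defining protein of the myofibroblast. It had 2844, 2689, 3163 and 2865 CPM in libraries I to IV of APTKA, 3333, 3603, 3197 and 3494 CPM in APTK and 3826, 3318, 3802 and 4119 CPM in untreated cells. The irradiated media gave 3044, 2645, 3039 and 3520 CPM for APTKA and 3499, 3107, 3166 and 3183 CPM for APTK. Every plain APTKA library lay below every untreated and every plain APTK library, while APTK and untreated libraries overlapped. The log2 fold change was -0.38 ± 0.074 (adjusted p = 6.3e-05) for APTKA and -0.14 ± 0.074 (adjusted p = 0.12) for APTK against untreated cells, and -0.24 ± 0.074 (adjusted p = 0.0068) between the media. For APTK the test was passed without untreated II, at -0.20. Between the irradiated media the Acta2 libraries overlapped and the test was not passed (-0.081, adjusted p = 0.35). Against untreated cells Acta2 had -0.30 (adjusted p = 0.0010) with irradiated APTKA and -0.22 (adjusted p = 0.019) with irradiated APTK. The irradiated APTK call was lost without untreated IV (-0.17). Actg2, the actin of gut smooth muscle, was not lower with any medium. Its libraries had 808, 741, 815 and 815 CPM with APTKA, 826, 949, 828 and 911 CPM with APTK and 800.5, 743, 763 and 818 CPM when untreated. With the irradiated media they had 962, 796, 905 and 994 CPM for APTKA and 976, 866, 879.8 and 878 CPM for APTK. The APTK libraries were all above the untreated ones by a narrow margin, and the log2 fold change of 0.17 ± 0.065 (adjusted p = 0.035) was lost without untreated II, untreated III, APTK II or APTK IV (0.13 to 0.16). For APTKA it was 0.025 ± 0.065 (adjusted p = 0.75). Actb, the cytoplasmic beta-actin found in all cells, had 4347, 4245, 4911 and 4448 CPM with APTKA, 4756, 5399, 5048 and 5253 CPM with APTK and 4534, 4094, 4517 and 4862 CPM in untreated cells. Its irradiated libraries had 4663, 4189, 4777 and 5079 CPM for APTKA and 5334, 4522, 5128 and 4973 CPM for APTK. Its groups overlapped in these comparisons. The log2 fold change of Actb was -0.0046 (adjusted p = 0.96) with APTKA and 0.18 (adjusted p = 0.028) with APTK, and the APTK call was lost without untreated II, untreated III, APTK II or APTK IV (0.14 to 0.18).

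Calponins and transgelins bind along actin filaments, and Cnn1 and Tagln are textbook markers of differentiated smooth muscle. The transgelins went apart. Tagln (chr9:45929619-45936058, minus strand) had 1509, 1445, 1529 and 1534 CPM with APTKA, 2386, 2372, 2150 and 2325 CPM with APTK and 1738, 1635, 1852 and 1993 CPM in untreated cells, and 1478, 1352, 1561 and 1754 CPM with irradiated APTKA and 2471, 2164, 2146 and 2273 CPM with irradiated APTK. The 3 plain groups did not overlap: APTK was above untreated and APTKA below. The log2 fold changes were -0.26 ± 0.069 (adjusted p = 0.0018) for APTKA and 0.36 ± 0.07 (adjusted p = 0.00015) for APTK against untreated cells, and -0.62 ± 0.07 (adjusted p = 1.4e-08) between the media. Tagln2, the form made by many non-muscle cells, ran the other way. It had 105, 102, 104 and 99.7 CPM with APTKA, 56.1, 50.5, 54.2 and 60.6 CPM with APTK and 78.8, 82.6, 79.9 and 86.9 CPM in untreated cells, and with the irradiated media 104, 100.2, 106 and 112 CPM for APTKA and 69.6, 55.1, 60.5 and 54.9 CPM for APTK. Again no 2 plain groups overlapped, with log2 fold changes of 0.32 ± 0.064 (adjusted p = 7.3e-05) for APTKA, -0.57 ± 0.065 (adjusted p = 5.9e-08) for APTK and 0.89 ± 0.065 (adjusted p = 2.8e-12) between the media, the highest positive value on the list in that comparison. Cnn1 had 483, 441, 486 and 458 CPM with APTKA, 470.1, 486, 443 and 433 CPM with APTK and 461, 392, 484 and 516 CPM when untreated; the irradiated media gave 453, 416, 498 and 574 CPM for APTKA and 433, 330.3, 399 and 424 CPM for APTK. The plain groups overlapped, and Cnn1 did not pass in any comparison of plain groups (0.013, adjusted p = 0.91 for APTKA and -0.017, adjusted p = 0.9 for APTK). Cnn2 fell with APTKA by 0.33 (adjusted p = 0.00024) on the log2 scale, with 799 ± 18.5 CPM against 1003 ± 102 CPM in untreated cells (SD, n = 4 each), and stood at 0.0093 (adjusted p = 0.93) with APTK. Cnn3 had 328 to 370.5 CPM with APTKA and 328 to 370.3 CPM in untreated cells and did not pass in either plain medium.

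**Figure D2:**
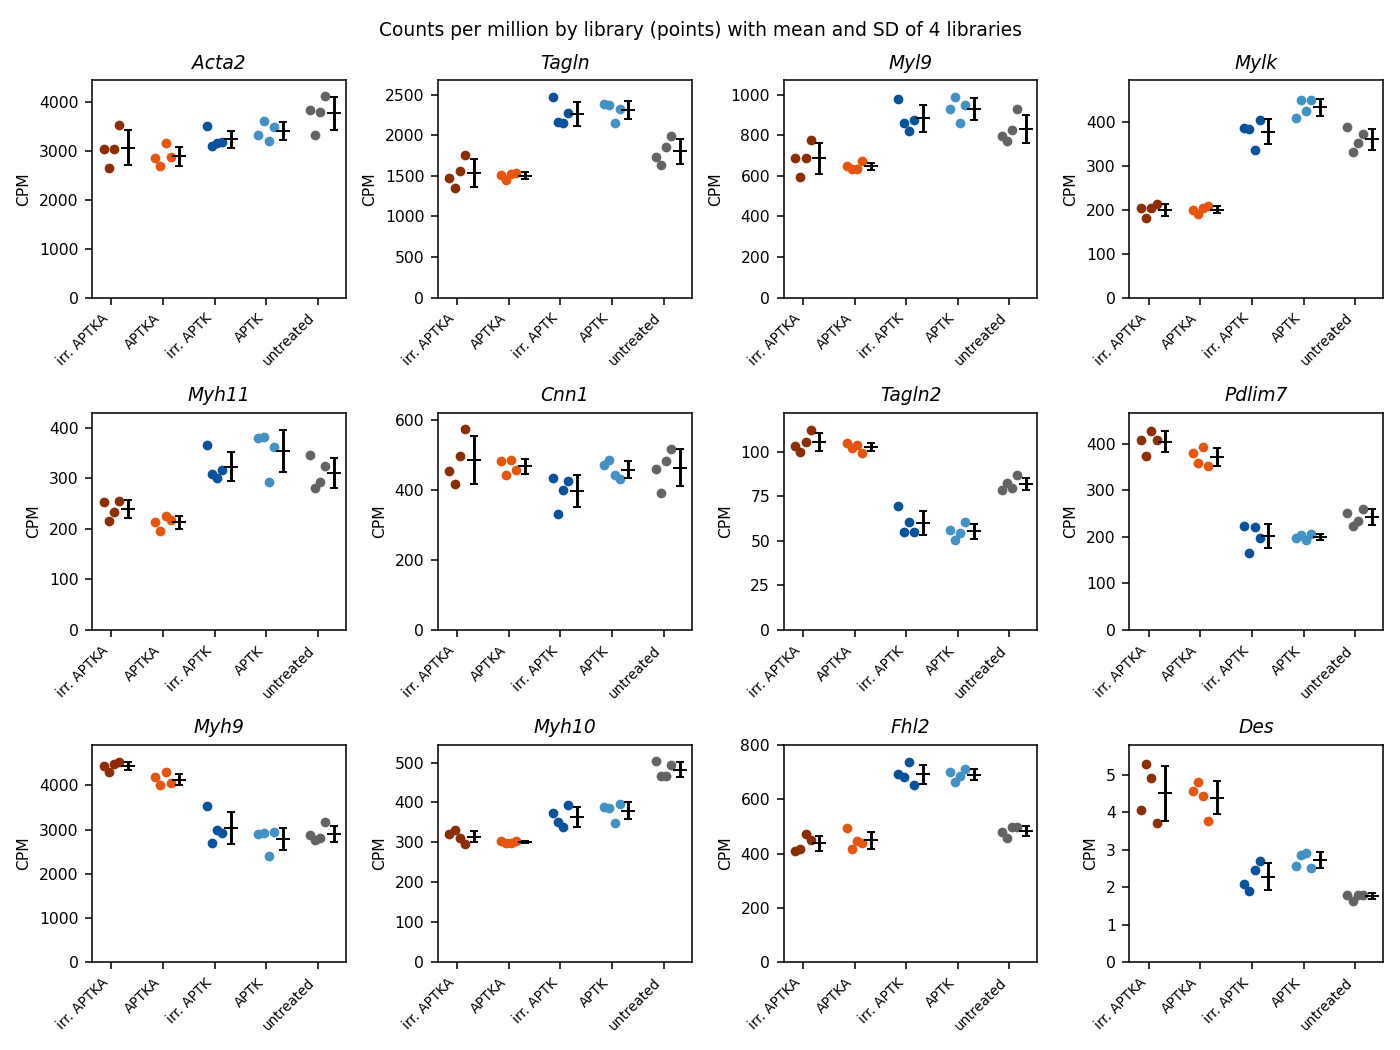
CPM of 12 listed genes in each library (points, replicates I to IV left to right) with mean and SD of the 4 libraries of a group (black), on axes that start at 0. Tagln, Myl9, Mylk and Myh11 are lowest in the APTKA groups, Tagln2, Pdlim7, Myh9 and Des are highest there, Fhl2 is highest in the APTK groups, and Cnn1 shows overlapping groups.

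Myosin II is the motor of the stress fibre. Of the 5 myosin chains on the list and the kinase Mylk, 1 was higher and 5 were lower with APTKA medium than in untreated cells, beside 31.5% and 29.9% of all genes, and 1 was higher and 2 lower with APTK medium, beside 20.9% and 22.5%. Mylk (chr16:34745210-35002420, plus strand), the kinase that phosphorylates the regulatory light chain, had 199, 191, 204 and 209 CPM with APTKA, 409, 449, 425 and 450.3 CPM with APTK and 388, 332, 351 and 372 CPM in untreated cells. Its irradiated libraries had 203, 181, 203 and 213 CPM for APTKA and 386, 385, 336 and 404 CPM for APTK. The libraries of both APTKA groups lay far below all APTK, irradiated APTK and untreated ones, and the plain APTK libraries lay above all untreated ones. The log2 fold change was -0.85 ± 0.062 (adjusted p = 2.7e-12) for APTKA and 0.27 ± 0.061 (adjusted p = 0.00086) for APTK, and -1.11 ± 0.062 (adjusted p = 1.2e-14) between the media, the largest on the list in that comparison. Myl9, the smooth muscle form of that light chain, had 648, 635, 632 and 671 CPM with APTKA, 927, 990.3, 859.6 and 947 CPM with APTK and 795, 774, 827 and 931 CPM in untreated cells, and 688, 593, 686 and 774 CPM with irradiated APTKA and 976, 862, 819 and 877 CPM with irradiated APTK. Its plain APTKA libraries were below all untreated ones, at -0.36 ± 0.07 (adjusted p = 6.2e-05), while APTK overlapped with untreated, at 0.16 (adjusted p = 0.063); the APTK value passed without untreated IV, APTK III, irradiated APTKA II, irradiated APTKA IV or irradiated APTK II (0.16 to 0.22). Between the media it was -0.53 (adjusted p = 2.8e-07). Myl6, an essential light chain, was lower with both media (-0.20, adjusted p = 0.009 for APTKA and -0.24, adjusted p = 0.0032 for APTK), and the APTKA call was lost without untreated IV (-0.15).

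The 3 heavy chains, each the motor of a different myosin II, moved in 3 ways. Myh11, the smooth muscle heavy chain, had 213, 195, 225 and 218 CPM with APTKA, 379, 383, 294 and 362 CPM with APTK and 346, 282, 292 and 325 CPM in untreated cells. With the irradiated media it had 254, 216, 232 and 255 CPM for APTKA and 366, 309.5, 300.4 and 317 CPM for APTK. It was below every untreated library with APTKA (-0.55 ± 0.082, adjusted p = 2.6e-06), overlapped with APTK (0.19, adjusted p = 0.067, passed without untreated I or APTK III at 0.24 to 0.27) and differed between the media by -0.74 ± 0.082 (adjusted p = 2.7e-08). Myh10, the heavy chain of non-muscle myosin IIB, was lower with both media. It had 302, 298, 299.5 and 302 CPM with APTKA, 388, 386, 348 and 396 CPM with APTK and 503, 465, 467 and 494 CPM in untreated cells, and 320.5, 330.2, 312 and 296 CPM with irradiated APTKA and 373, 351, 338 and 394 CPM with irradiated APTK. None of the plain groups overlapped, with -0.68 ± 0.054 (adjusted p = 1.4e-11) for APTKA, -0.35 ± 0.054 (adjusted p = 7.2e-06) for APTK and -0.34 ± 0.054 (adjusted p = 4.2e-06) between the media. Myh9, the heavy chain of non-muscle myosin IIA, was the only myosin gene of the list to rise with APTKA, to 4131 ± 132 CPM against 2905 ± 177 CPM in untreated cells (0.51, adjusted p = 4.9e-07; SD, n = 4 each). With APTK it had 2789 ± 257 CPM, -0.059 (adjusted p = 0.53).

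Within a library, the share of a gene in its family does not depend on how libraries are scaled. Per kilobase, Myh9 made up 84.8% ± 0.381 of the 3 heavy chains in irradiated APTKA, 84.9% ± 0.303 in APTKA, 75.2% ± 1.47 in irradiated APTK, 72.2% ± 0.28 in APTK and 72.1% ± 1.17 in untreated cells (SD, n = 4 each). The libraries of both APTKA groups (84.3% and above) lay above all others (76.5% and below). Myh11 made up 7.77% ± 0.467 in irradiated APTKA, 7.44% ± 0.298 in APTKA, 13.6% ± 0.57 in irradiated APTK, 15.6% ± 0.561 in APTK and 13.1% ± 0.856 in untreated cells. Its plain APTK libraries were all above the untreated ones. Among the 3 listed actins, Acta2 made up 37.4% ± 0.935 in irradiated APTKA, 37.6% ± 0.296 in APTKA, 37.7% ± 0.791 in irradiated APTK, 38.5% ± 0.865 in APTK and 44% ± 0.683 in untreated cells, and every library with a conditioned medium was below every untreated one. Tagln2 made up 6.18% ± 0.356 of both transgelins in irradiated APTKA, 6.13% ± 0.216 in APTKA, 2.47% ± 0.183 in irradiated APTK, 2.24% ± 0.193 in APTK and 4.18% ± 0.297 in untreated cells, with no overlap between the APTKA, APTK and untreated levels. These shares are descriptions and were not tested.

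**Figure D3:**
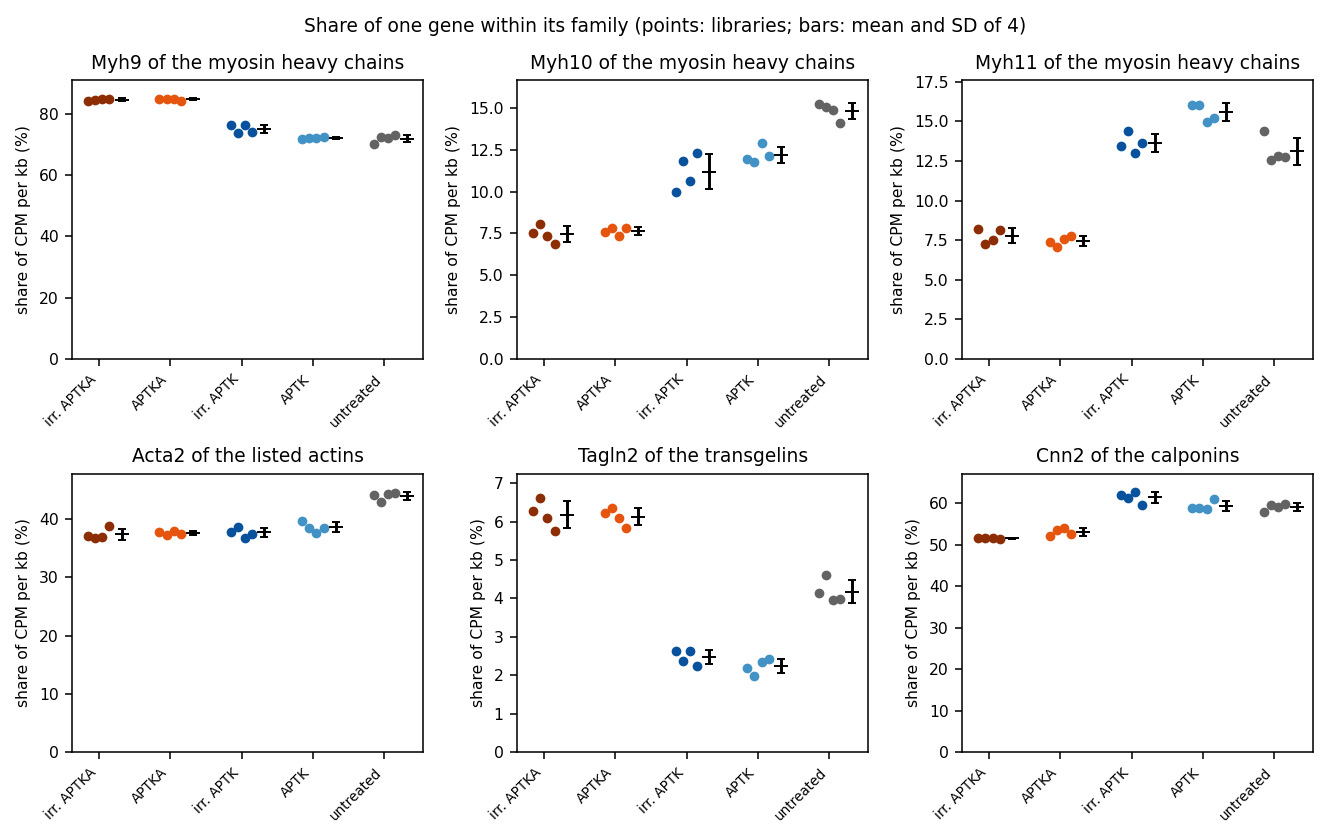
Share of a gene in its family, in percent of the family's CPM per kilobase of exon, in each library (points) with mean and SD of 4 libraries (black); the axes start at 0. Myh9 is above 84% in both APTKA groups and below 77% elsewhere, the Tagln2 share is highest in the APTKA groups and lowest in the APTK groups, and the Acta2 share is highest in untreated cells.

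Tropomyosins coil along the actin filament and, with caldesmon, leiomodin and smoothelin, set which myosins and other proteins can bind it. Of these 7 genes, 2 were higher and none lower with APTKA medium, and 3 were higher and 1 lower with APTK medium. The shares of all genes were 31.5% higher and 29.9% lower with APTKA, and 20.9% and 22.5% with APTK. Lmod1, an actin nucleator of smooth muscle, rose with both media. It had 209, 199, 217 and 224 CPM with APTKA, 186, 196, 172 and 191 CPM with APTK and 159, 119, 145 and 143 CPM in untreated cells, and 214, 190.1, 211 and 232 CPM with irradiated APTKA and 203, 173, 182 and 185 CPM with irradiated APTK. All libraries with a medium exceeded all untreated ones, at 0.59 ± 0.072 (adjusted p = 6.9e-08) for APTKA and 0.40 ± 0.072 (adjusted p = 6.1e-05) for APTK. The step between the media, 0.19 (adjusted p = 0.023), was lost without APTKA IV or APTK III (0.15 to 0.17). Smtn, encoding smoothelin of contractile smooth muscle, rose with APTK. It had 47.6, 42.3, 50.2 and 49.9 CPM with APTKA, 62, 78, 72.9 and 71.4 CPM with APTK and 57.5, 47.6, 48.1 and 49 CPM in untreated cells; the irradiated media gave 54.4, 48.8, 53.9 and 48.8 CPM for APTKA and 74, 58.3, 76 and 77.9 CPM for APTK. The APTK libraries were above all untreated and all APTKA ones, at 0.49 ± 0.084 (adjusted p = 3.4e-05) against untreated cells and -0.58 ± 0.084 (adjusted p = 1.4e-06) for APTKA against APTK. Against untreated cells APTKA gave -0.09 (adjusted p = 0.37). Cald1, encoding caldesmon, rose with APTKA to 1469 ± 64.3 CPM against 1064 ± 98.5 CPM in untreated cells (0.47, adjusted p = 1.4e-07; SD, n = 4 each) and had 0.085 (adjusted p = 0.27) with APTK, which passed without untreated I (0.15). Tpm1 to Tpm4 did not pass with APTKA (log2 fold changes 0.15, -0.13, 0.051 and 0.14), but Tpm1 passed with any of 9 libraries left out, at 0.15 to 0.18 (untreated IV; APTKA II and III; APTK III; irradiated APTKA II and IV; irradiated APTK I, II and IV), and Tpm4 without irradiated APTK II (0.15). With APTK, Tpm4 was higher (0.23, adjusted p = 0.015) and Tpm3 lower (-0.17, adjusted p = 0.039); Tpm4 was lost without untreated II (0.19), and Tpm3 without untreated III, untreated IV, APTK I, APTK II or APTK III (-0.17 to -0.12).

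Among crosslinkers and adhesion proteins, 3 of 7 were higher and 1 lower with APTKA medium, and 2 were lower and none higher with APTK medium. Beside them stand 31.5% higher and 29.9% lower of all genes with APTKA, and 20.9% and 22.5% with APTK medium. Flna, the large crosslinker filamin A, was lower with both. It had 4989, 4918, 5092 and 4817 CPM with APTKA, 5216, 5144, 4392 and 4975 CPM with APTK and 6157, 5461, 5919 and 6487 CPM in untreated cells, and 5216, 5278, 5313 and 5531 CPM with irradiated APTKA and 5242, 4084, 5036 and 4942 CPM with irradiated APTK. Each plain medium lay below all untreated libraries, at -0.28 ± 0.068 (adjusted p = 0.00085) for APTKA and -0.28 ± 0.068 (adjusted p = 0.0012) for APTK, and the media did not differ by more than their spread (0.0065, adjusted p = 0.94). Actn1, an alpha-actinin that bundles stress fibres, rose with APTKA to 2055 ± 39.1 CPM against 1639 ± 76.8 CPM in untreated cells (0.33, adjusted p = 1.3e-05; SD, n = 4 each), and had 1565 ± 77.1 CPM with APTK (-0.067, adjusted p = 0.36). Its relative Actn4 had -0.10 (adjusted p = 0.24) with APTKA and -0.19 (adjusted p = 0.04) with APTK, the last lost without untreated I, untreated III, untreated IV, APTK I, APTK III or APTK IV (-0.20 to -0.14). Synpo2, a Z-disc and stress fibre protein also called myopodin, had 186 ± 11.7 CPM with APTKA, 116 ± 9.29 CPM with APTK and 131 ± 21.4 CPM in untreated cells, with 0.51 (adjusted p = 0.0001) for APTKA and 0.69 (adjusted p = 2.4e-06) between the media. Zyx, a tension-sensing LIM protein of adhesions, had 0.35 (adjusted p = 0.018) with APTKA, lost without untreated III, untreated IV or APTKA III (0.28 to 0.32), and 0.26 (adjusted p = 0.094) with APTK, passed without untreated I or APTK I (0.35 to 0.37). Vcl and Palld, the adhesion linker vinculin and the actin scaffold palladin, did not pass with either plain medium (0.092 and 0.16 for APTKA, 0.10 and 0.21 for APTK).

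**Figure D4:**
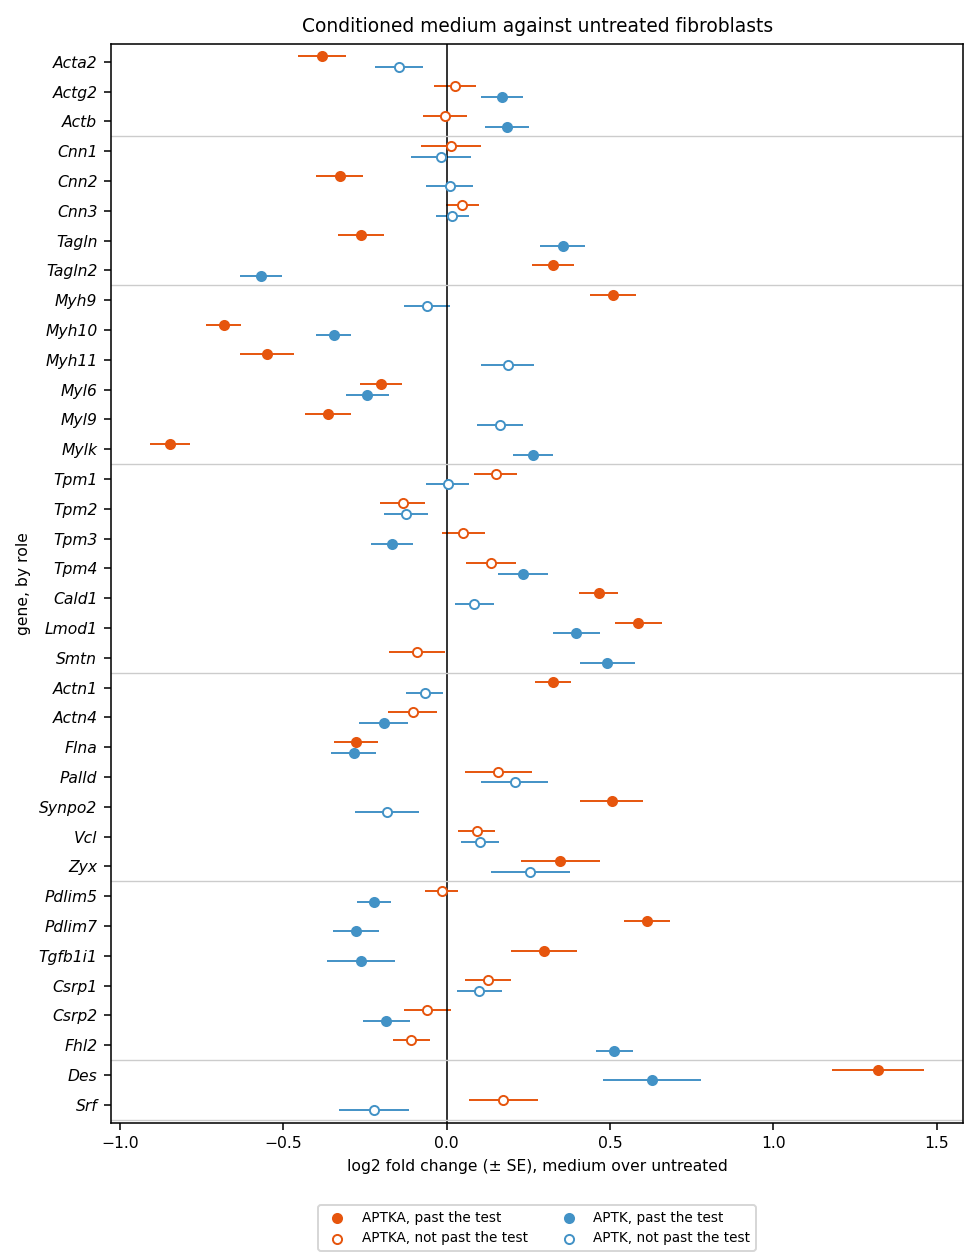
Log2 fold change with SE of the 36 listed genes for APTKA (orange) and APTK medium (blue), each over the same 4 untreated libraries; filled points passed the edgeR test at a false discovery rate of 5%. Mylk, Tagln, Tagln2, Pdlim7 and Tgfb1i1 have filled points on opposite sides of 0, and Myh10, Flna, Myl6, Lmod1 and Des on the same side.

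The LIM and PDZ-LIM adaptors link alpha-actinin and adhesions to signalling proteins. With APTKA medium 2 of 6 were higher and none lower, and with APTK medium 1 was higher and 4 lower. The shares of all genes were 31.5% higher and 29.9% lower with APTKA, and 20.9% and 22.5% with APTK. Pdlim7 (chr13:55495795-55513676, minus strand), also called enigma, had 379, 358, 394 and 352 CPM with APTKA, 196, 205, 193 and 205 CPM with APTK and 251, 224, 234 and 261 CPM in untreated cells. Its irradiated libraries had 409, 374, 428 and 409 CPM for APTKA and 223, 166, 220.3 and 198 CPM for APTK. The plain groups did not overlap, with APTKA highest and APTK lowest: 0.61 ± 0.07 (adjusted p = 1.9e-08) and -0.28 ± 0.07 (adjusted p = 0.0021) against untreated cells, and 0.89 ± 0.071 (adjusted p = 1.9e-11) between the media. Fhl2, a LIM-only cofactor of transcription in muscle and stressed cells, was the counterpart. It had 494, 419, 445 and 438 CPM with APTKA, 700, 666, 685 and 712 CPM with APTK and 481, 457, 500.2 and 498 CPM in untreated cells, and 409, 419, 472 and 452 CPM with irradiated APTKA and 693, 684, 739.8 and 652 CPM with irradiated APTK. Both APTK groups lay above all other libraries, at 0.51 ± 0.057 (adjusted p = 4.1e-08) for APTK against untreated cells and -0.62 ± 0.057 (adjusted p = 3.5e-10) for APTKA against APTK; APTKA overlapped with untreated cells (-0.11, adjusted p = 0.11, passed without APTKA I at -0.16). Tgfb1i1, an adhesion adaptor induced by TGF-beta, had 37.2 ± 2.42 CPM with APTKA, 25.2 ± 3.35 CPM with APTK and 30.2 ± 5.54 CPM in untreated cells, and the media differed by 0.56 (adjusted p = 3.9e-05). Its call for APTKA (0.30, adjusted p = 0.013) was lost without untreated III or untreated IV (0.23) and that for APTK (-0.26, adjusted p = 0.042) without untreated I, untreated II, APTK I or irradiated APTK II (-0.26 to -0.14). Pdlim5 was lower with APTK (-0.22, adjusted p = 0.00091) and stood at -0.015 with APTKA. The small LIM proteins Csrp1 and Csrp2 did not pass with APTKA (0.13 and -0.059), although Csrp1 did without untreated IV (0.20); with APTK, Csrp2 was lower (-0.18, adjusted p = 0.043), which was lost without untreated II, untreated III, untreated IV, APTK II, APTK III or APTK IV (-0.20 to -0.14), and Csrp1 had 0.10, passed without untreated IV (0.17).

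Des, encoding the muscle intermediate filament desmin, had the lowest level of the list and its largest fold change for either plain medium against untreated cells. Its libraries had 4.57, 4.8, 4.44 and 3.77 CPM with APTKA, 2.57, 2.87, 2.93 and 2.5 CPM with APTK and 1.8, 1.64, 1.8 and 1.79 CPM in untreated cells, and 4.07, 5.29, 4.93 and 3.73 CPM with irradiated APTKA and 2.09, 1.89, 2.46 and 2.69 CPM with irradiated APTK. The plain groups did not overlap. The log2 fold changes were 1.32 ± 0.14 (adjusted p = 5.6e-09) for APTKA, 0.63 ± 0.15 (adjusted p = 0.0012) for APTK and 0.69 ± 0.13 (adjusted p = 5.2e-05) between the media, resting on 471 reads in all in APTKA, 281 in APTK and 177 in untreated libraries. Des overlaps the gene Gm15179 on the opposite strand. Srf (chr17:46548329-46556175, minus strand), the factor behind the CArG box, moved less. It had 104, 116, 126 and 116 CPM with APTKA, 80.7, 92.8, 86.3 and 91.5 CPM with APTK and 109.6, 90.3, 103 and 106 CPM in untreated cells, and 109.7, 98.7, 115 and 109 CPM with irradiated APTKA and 103, 66.7, 107 and 104 CPM with irradiated APTK. APTKA libraries were all above APTK ones (0.40 ± 0.11, adjusted p = 0.0031), and untreated libraries overlapped with both (0.17, adjusted p = 0.17 for APTKA and -0.22, adjusted p = 0.1 for APTK). Both values against untreated cells passed without irradiated APTK II (0.19 and -0.22), a library of neither compared group. Between the irradiated media the Srf libraries overlapped and the test was not passed (0.18, adjusted p = 0.15).

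The irradiated arm was compared with the plain medium of the same organoid line. No listed gene passed in either medium. Of all genes, 0.452% were higher and 0.277% lower with irradiated APTKA than with APTKA medium, and 0.547% higher and 0.837% lower with irradiated APTK than with APTK medium. At an unadjusted p below 0.05, edgeR had 5 listed genes for APTKA, all higher (Actg2, Cnn3, Csrp1, Csrp2 and Palld), and 3 for APTK (Tpm3 higher, Cnn1 and Mylk lower); DESeq2 had 7 and 3, and 0 after adjustment in both. The log2 fold changes ran between -0.096 for Srf and 0.23 for Palld in APTKA, and between -0.23 for Des and 0.15 for Tpm3 in APTK, with SEs of 0.050 to 0.12 and 0.051 to 0.15. In APTKA 28 of 36 were above 0, with a median of 0.084 over the list and 0.0044 over all genes; in APTK 17 were, with medians of -0.0030 and 0.0036. The lowest adjusted p was 0.15, for Actg2 (0.20), in APTKA and 0.099, for Mylk (-0.20), in APTK. Without irradiated APTK IV, Mylk (-0.23) and Tpm3 (0.22) passed in the APTK comparison. The difference between the irradiation effects of both media was tested too: 0 listed genes passed, where 0.121% of all genes were higher and 0.0607% lower, with medians of 0.10 over the list and -0.00093 over all genes. At an unadjusted p below 0.05 edgeR had 3 (Csrp1, Myh11 and Mylk), all higher for APTKA, and DESeq2 6, with 0 after adjustment. The shares of all genes given here are those after adjustment. None is given at the unadjusted threshold, so the unadjusted counts cannot be read as a trait of the list.

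**Figure D5:**
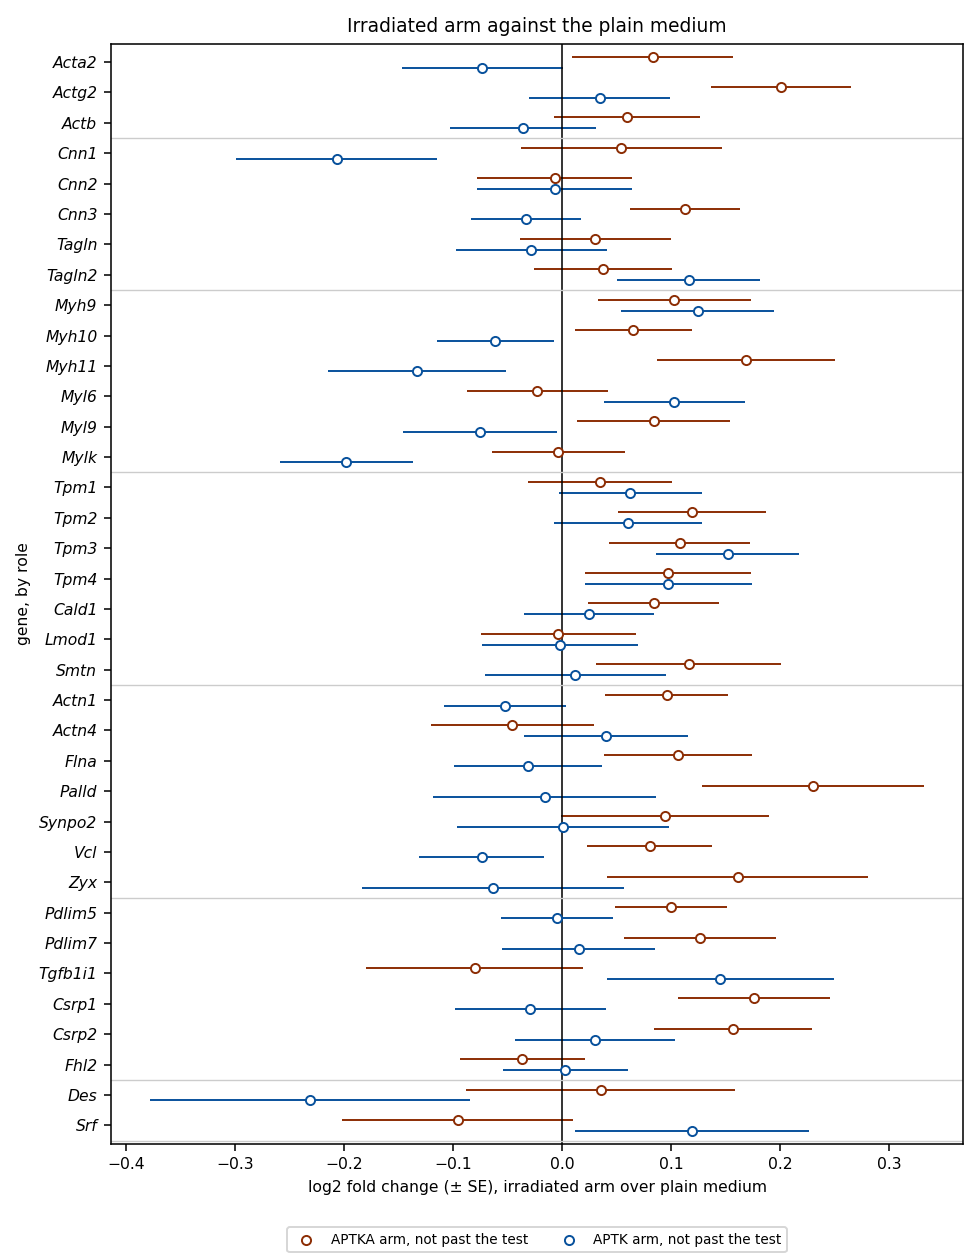
Log2 fold change with SE of the 36 listed genes for the irradiated arm over the plain medium, for APTKA (brown) and APTK (blue). All points are open, since none passed the edgeR test; the APTK points run between -0.23 (Des) and 0.15 (Tpm3), and the APTKA points between -0.096 (Srf) and 0.23 (Palld).

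The irradiated media were also set against the same untreated libraries, which the plain comparisons share. Mylk had -0.85 ± 0.062 (adjusted p = 2.5e-12) with irradiated APTKA and 0.067 (adjusted p = 0.4) with irradiated APTK. For Pdlim7 the values were 0.74 ± 0.07 (adjusted p = 6.4e-10) with irradiated APTKA and -0.26 ± 0.07 (adjusted p = 0.0035) with irradiated APTK. Myh10 was lower with both, at -0.62 ± 0.054 (adjusted p = 1.1e-10) and -0.41 ± 0.054 (adjusted p = 6.7e-07), and Fhl2 rose with irradiated APTK by 0.52 ± 0.057 (adjusted p = 3.7e-08). Des had 1.36 ± 0.14 (adjusted p = 3e-09) with irradiated APTKA; with irradiated APTK it had 0.40 ± 0.16 (adjusted p = 0.042), lost without untreated I, untreated II, untreated III, untreated IV, irradiated APTK III or irradiated APTK IV (0.31 to 0.41). Between the irradiated media Pdlim7 differed by 1.00 ± 0.071 (adjusted p = 2.3e-12), Mylk by -0.92 ± 0.062 (adjusted p = 7.8e-13) and Cnn1 by 0.29 ± 0.092 (adjusted p = 0.0089). The Cnn1 call was lost without irradiated APTKA IV (0.20).

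Regulators and relatives of the listed genes were counted from further lists, all against untreated cells by the same edgeR test. Beside these counts stand 31.5% higher and 29.9% lower of all genes with APTKA medium, and 20.9% and 22.5% with APTK medium, and no list was tested against that share. Mrtfa, the actin-regulated cofactor of serum response factor, had 159 ± 16.3 CPM with APTKA, 95.5 ± 9.72 CPM with APTK and 68.9 ± 6.05 CPM in untreated cells (SD, n = 4 each), a log2 fold change of 1.21 ± 0.082 for APTKA and 0.47 ± 0.082 for APTK. Of 12 genes of the myosin phosphatase and of further light chain kinases, 6 were higher and 3 lower with APTKA, and 2 and 4 with APTK. Ppp1r14a, an inhibitor of that phosphatase in smooth muscle, rose with APTKA (1.46 ± 0.13) and APTK (1.82 ± 0.13), and Prkg1, the cGMP-dependent kinase that relaxes smooth muscle, fell with both (-0.80 ± 0.055 and -0.35 ± 0.054). Myl12b, a non-muscle regulatory light chain, had 0.77 ± 0.054 with APTKA; it overlaps a gene entry of the same name on its strand and is near-identical to Myl12a, so its count is uncertain. Of 25 genes of actin turnover, 8 were higher and 8 lower with APTKA, and 6 and 8 with APTK. In that list Tmsb10, a monomer-binding thymosin, fell to 9.61 ± 1.41 CPM with APTKA, against 19.2 ± 3.93 CPM in untreated cells (SD, n = 4 each), and Ssh3, a cofilin phosphatase, had 0.80 ± 0.13 with APTK.

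Of 29 focal adhesion and linker genes, 12 were higher and 9 lower with APTKA, and 4 and 10 with APTK. Enah, which lengthens actin filaments at adhesions, rose to 673 ± 40.5 CPM with APTKA against 189 ± 15 CPM in untreated cells (1.83 ± 0.056; SD, n = 4 each) and had 189 ± 2.71 CPM with APTK. Tln2, a talin, fell with APTK by 0.67 ± 0.068 on the log2 scale. Of 11 tested LIM and PDZ relatives of the listed genes, 7 were higher and 2 lower with APTKA, and 5 and 2 with APTK. Pdlim4 rose with APTKA (2.07 ± 0.092) and APTK (1.83 ± 0.093), Pdlim3 with APTKA (1.97 ± 0.14), and Actn3, the alpha-actinin of fast muscle, with APTK (2.03 ± 0.11, at 12.8 ± 0.5 CPM against 3.14 ± 0.286 CPM in untreated cells). Of 17 TGF-beta targets and pathway genes of the myofibroblast state, 5 were higher and 7 lower with APTKA, and 4 and 2 with APTK. Ccn2, a matricellular protein and a target of Mrtfa and YAP, had 1.56 ± 0.062 with APTKA and 0.83 ± 0.061 with APTK. Exons of Mrtfa, Ccn2 and Tgfb2 overlap a gene on the opposite strand. In these lists 2 genes differed between irradiated APTKA and APTKA medium, both higher: Enah, at 0.25 ± 0.054 (adjusted p = 0.025), and Tgfb2, a TGF-beta ligand, at 0.34 ± 0.076 (adjusted p = 0.030). They were named after their values were seen, and are 1 of 29 adhesion genes and 1 of 17 TGF-beta genes. In that comparison 0.452% of all genes were higher and 0.277% lower. Between irradiated APTK and APTK medium, and in the difference of the irradiation effects, the count was 0. There 0.547% of all genes were higher and 0.837% lower for APTK, and 0.121% and 0.0607% for the difference.

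With irradiated APTKA, 8 genes were higher and 1 lower than in untreated cells in the phosphatase list, 8 and 6 in actin turnover, 14 and 9 in the adhesion list, 7 and 2 among the relatives, and 5 and 7 in the TGF-beta list. With irradiated APTK the higher and lower counts were 2 and 2, 6 and 6, 4 and 10, 4 and 4, and 5 and 2 in the same order of lists. Between APTKA and APTK medium they were 7 and 2, 6 and 8, 11 and 5, 7 and 3, and 5 and 7. Between irradiated APTKA and irradiated APTK medium they were 8 and 1, 9 and 8, 15 and 4, 7 and 2, and 5 and 7. Of all genes, 31% were higher and 30% lower with irradiated APTKA, and 21.5% and 22.2% with irradiated APTK, than in untreated cells. Between the media the shares were 31.1% and 31.8% for the plain arm and 30.1% and 31.2% for the irradiated arm.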

How the data were processed

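Whole-number read counts per gene were deposited by the authors, not normalised, for 20 libraries. Per the submitters' processing notes, featureCounts 1.5.0-p1 was used, along with STAR 2.5.2a and bcl2fastq 2.20.0.422, with mm10 as build. Annotation release, strandedness and multi-mapping rules: not given in the sources used here. Of 47729 identifiers, 47224 had a symbol. Positions and exon lengths come from GENCODE M21 (GRCm38), promoter windows from RefSeq.

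Counts were fitted in R 4.3.3 with edgeR 4.0.16 (TMM scaling, default filter by group, robust quasi-likelihood), with 5 group means over all 20 libraries (15 residual degrees of freedom) and Benjamini-Hochberg adjustment over 14820 genes. Adjusted p-values in the text are from this test; SE is the log2 fold change over the root of F. CPM use TMM-scaled totals. The fit was tested on simulated data. The genes and lists were chosen with earlier results of these data known. Per-library values are given for Acta2, Tagln, Cnn1, Myl9, Myh11, Des, Actg2, Actb and Srf, and for up to 3 largest called rises and falls without overlap in each plain comparison; from each further list, examples come from the 3 largest changes against untreated cells. Some results of the further lists are not reported here. Alternatives were DESeq2 1.42.0, its size factors, upper quartile scaling, other filters, the compared groups alone, a replicate block and leaving out each library.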

Additional observations from a re-analysis of the deposited data

Results flagged for a closer look

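Of 180 groups of 4 libraries, 36 genes in 5 groups, 10 had a library far from the other 3 by Dixon's criterion; chance gives about 1 in 20. Actg2 had 741.3 CPM in APTKA II (808 to 815 in the others) and 975.5 CPM in irradiated APTK I (866 to 880). APTK III was low for Tpm1, at 2237 CPM (2504 to 2528 in the others), and for Myh9, at 2405 CPM (2890 to 2937). Pdlim5 had 434.8 CPM in irradiated APTK III (417 to 418). Tgfb1i1 had 20.24 CPM in APTK I (26.4 to 27.5). Des had 1.639 CPM in untreated II (1.79 to 1.80). Srf had 66.69 CPM in irradiated APTK II, the shallowest library (103 to 107.1). Smtn had 57.5 CPM in untreated I (47.6 to 49.0), and Csrp2 109.7 CPM in APTKA I (91.3 to 93.2).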

How the results depend on the processing

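No called direction of a listed gene reversed under any alternative. Calls of single genes did change. Over all comparisons, upper quartile scaling gained 12 and lost 14 of them. Without a filter on low counts 19 were gained and 4 lost, and with a filter of 5 CPM 5 and 9. The number of listed genes called, 19 for APTKA and 19 for APTK against untreated cells, 27 and 13 for irradiated APTKA and APTK, 22 for APTKA against APTK and 25 between the irradiated media, stayed within 1.5 times under all alternatives, and with 1 library left out ran over 17 to 22, 14 to 20, 25 to 28, 12 to 16, 21 to 24 and 22 to 26. The counts of 0 moved: without a filter on low counts 1 gene passed for irradiation in APTKA (Actg2), 2 in APTK (Cnn1 and Mylk) and 1 in the difference (Myh11), and with only the compared groups 1 in APTKA (Palld); the cause was not tested. Leaving out 1 library gave 0 to 2 for APTK and 0 for the others. The shares of all genes called for irradiation moved too. With only the compared groups, 2.06% were higher and 1.61% lower in APTKA, and 0.0427% and 0.0285% in APTK. The filter of 5 CPM removed Des. Of 72 changes of further genes eligible for naming, 70 kept call and direction throughout, and the exceptions were Parvb with APTK and with irradiated APTK medium, not described here. CArG shares for all genes were 1.47% over the 250 bases before the start.

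Equal replicate numbers did not pair the libraries: correlations of same-numbered deviations were -0.108 to 0.0959 over 40 pairs, and 6 of 20 libraries went best with their own number. With the replicate block 19, 20, 27, 14, 23 and 25 listed genes were called in the 6 comparisons above, in that order, and 0 in the 3 of irradiation. Standard errors near 0.07 on the log2 scale limit what could be seen for irradiation, and Des rests on 177 to 515 reads a group.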
